A study of Homo sapiens with 20 samples.

Results

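HEL cells, a human erythroleukaemia line that carries the JAK2 V617F mutation, were compared at 2 times in culture with only the solvent DMSO and no inhibitor. The comparison set 2 libraries of DMSO-treated cells at 48 h against 2 libraries at 4 h, chosen by their labelled treatment and time, which makes 4 of the 20 libraries of the series. All 4 came from a JAK2-mutant line grown in RPMI medium with 10% fetal bovine serum, so every group carried the mutation, and treatment was in duplicate. The same table held 2 libraries at each time with BCI at 1 µM, a compound that blocks the phosphatases DUSP6 and DUSP1, whose 48 h against 4 h values stand beside the DMSO values in places. Column headings of the table gave 24 h where the sample labels gave 48 h, which is the time used here. The labels do not say whether the duplicates were separate cultures, so the spread behind each p-value is that between these libraries and may be technical. Hours in culture, hours with DMSO, hours since the cells were last handled or fed, and cell density cannot be told apart here.

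A suspension culture moves with time from freshly handled, growing cells toward denser cells in partly used medium. Cells in rapid growth load the endoplasmic reticulum with new membrane and secreted proteins, make sterols and fatty acids for new membrane, and build ribosomes in the nucleolus. The endoplasmic reticulum answers unfolded protein by inducing its chaperones, and the sterol regulatory proteins (SREBPs) switch on the cholesterol pathway when membrane sterol is low. HEL cells have erythroid and megakaryocytic features, and their growth runs through JAK2, STAT5 and ERK.

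Libraries held 63916850 and 64448884 counts at 4 h and 75718039 and 71800322 counts at 48 h. The share of counts from mitochondrially encoded genes was 3.62 and 3.67% at 4 h and 3.81 and 4.68% at 48 h. All 10 erythroid and megakaryocytic marker genes of HEL cells were present, at 55.5 to 2275 CPM (counts relative to library size, scaled by the TMM method). Of 18 lymphoid marker genes, 10 stayed under 1 CPM in all 4 libraries, and the sum of the list was 76.4 and 80.6 CPM at 4 h and 89.8 and 94.2 CPM at 48 h. Of 19 epithelial and stromal marker genes, 10 stayed under 1 CPM and 4 had no count. Their sum was 196 and 200.2 CPM at 4 h and 204 and 313 CPM at 48 h. Most of this sum was PECAM1, at 139 and 144 CPM at 4 h and 140.2 and 224 CPM at 48 h. The part of these lymphoid, epithelial and stromal markers in the results below was not tested. In bulk RNA, fewer cells that express a gene and less of its RNA per cell cannot be told apart.

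The replicates at 48 h lay further apart than those at 4 h, and this touches every result. Over 11390 genes that averaged 4 CPM or more in the 8 libraries, the SD of the log2 ratio of replicate 2 to replicate 1 was 0.12 at 4 h and 0.30 at 48 h in DMSO (CPM + 0.5). At 48 h, 93 genes differed more than 2-fold between the DMSO replicates, against 3 genes at 4 h. All 93 differed in the same direction between the BCI replicates of the same time. Across these genes the replicate differences at 48 h in DMSO and in BCI correlated at r = 0.83, against -0.01 for the pair of differences at 4 h, where the genes of a library share its preparation and are not independent. The genes that were lower in replicate 2 included the glycolytic enzyme PKLR, the replication helicase subunit MCM7 and the alpha globin genes HBA1 and HBA2. MCM7 stood at 346 and 354 CPM at 4 h and at 319 and 112 CPM at 48 h. HBA1 stood at 361 and 383 CPM at 4 h and at 478 and 209 CPM at 48 h. In both, replicate 2 at 48 h was well below the 4 h level, while replicate 1 was below 4 h for MCM7 and above it for HBA1. On the higher side of replicate 2 lay the organic anion transporter SLCO2B1, the lysosomal protease CTSA and the nuclear RNA MALAT1. CTSA stood at 58.7 and 63.4 CPM at 4 h and at 51.5 and 183 CPM at 48 h, so that only replicate 2 lay above 4 h. MALAT1 stood at 221 and 221 CPM at 4 h and at 262 and 898 CPM at 48 h. These genes were picked from among the largest differences after their values were seen, and others as large are not named. The largest of all was the heat shock gene HSPA6, which is not in the list below. It stood at 3.16 and 4.08 CPM at 4 h and at 1.19 and 22.8 CPM at 48 h in DMSO. The cause of the gap between the 48 h replicates was not tested.

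**Figure D1:**
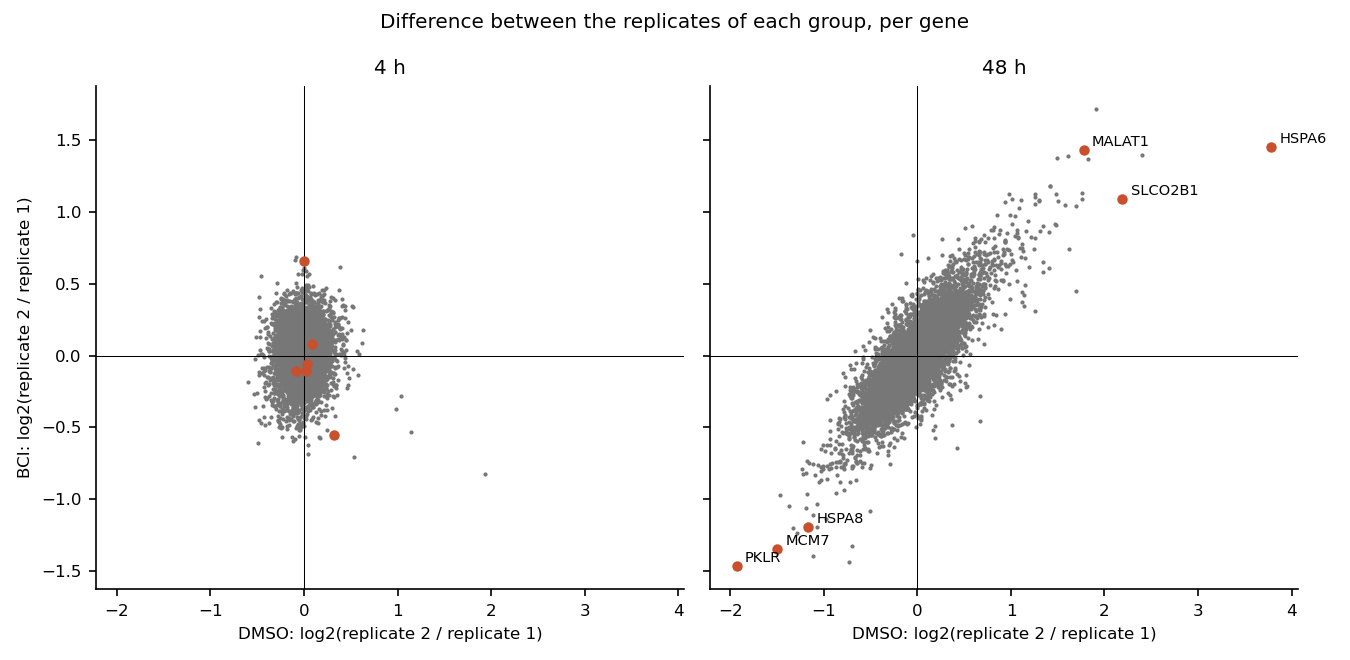
Each point is 1 of 11390 genes; the horizontal axis is the log2 ratio of replicate 2 to replicate 1 in DMSO and the vertical axis the same ratio in BCI, at 4 h (left) and 48 h (right), with 6 genes marked. The replicates differ little at 4 h, with an SD of 0.12 in DMSO, while at 48 h both arms spread along 1 diagonal (r = 0.83).

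Of 21908 genes tested, 5837 (26.6%) differed between 48 h and 4 h in DMSO by edgeR's quasi-likelihood test at a Benjamini-Hochberg adjusted p under 0.05. At 48 h, 2950 (13.5%) were higher and 2887 (13.2%) were lower. Both 48 h libraries lay above both 4 h libraries for 7172 of the 21908 genes and below both for 6620, so separate groups were common. Changes of at least 2-fold were more often upward, with 1129 genes higher and 297 lower. The balance of directions moved with the scaling: with library totals in place of TMM 3936 were higher and 1927 lower, which shifts the median log2 fold change of all genes by 0.11, and with trends in GC content and length removed 2297 were higher and 4202 lower, a shift of -0.11. Under TMM the median log2 fold change of all genes tested was 0.04, and log2 fold changes below are read against it. Called the same way under TMM, library totals, DESeq2 size factors and with the trends removed were 2250 genes higher and 1926 lower. Without 4 h replicate 1 the count of calls was 2501 and without 4 h replicate 2 it was 2498, while without 48 h replicate 1 or 2 it was 6017 and 5046. Of 3442 long non-coding RNA genes tested, 580 (16.9%) were called higher and 51 (1.48%) lower, with a median log2 fold change of 0.53. Of 2870 processed pseudogenes, which share reads with their parent genes, 18 (0.627%) were called higher and 181 (6.31%) lower, both below the shares over all genes. Counts of gene lists below are to be read against the 13.5% higher and 13.2% lower of all genes, and leaving out either 4 h library takes many of them down with the total.

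**Figure D2:**
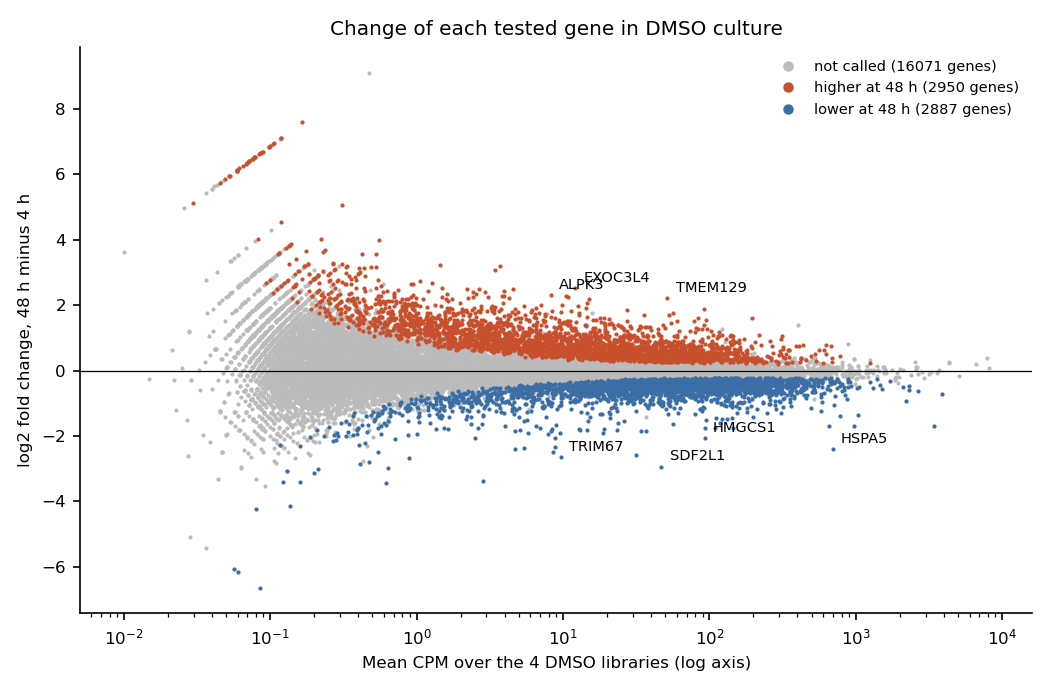
Each point is 1 of the 21908 genes tested; the horizontal axis is the mean CPM over the 4 DMSO libraries on a log scale and the vertical axis the log2 fold change from 4 h to 48 h. Genes called higher (2950) and lower (2887) are coloured; the largest falls at high level include HSPA5, and 7 genes are labelled.

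The chaperones of the endoplasmic reticulum fell most. Of 18 genes of the endoplasmic reticulum stress list, 16 fell, 0 rose and 2 did not pass, with a median log2 fold change of -1.43 beside 0.04 for all genes. HSPA5 (BiP), the main chaperone of the compartment (GRCh38 chr9:125234853-125241330, minus strand), stood at 1171 and 1170.3 CPM at 4 h and at 237 and 206 CPM at 48 h. Both 48 h libraries lay far below both 4 h libraries, and the level was 5.29-fold lower (log2 fold change -2.40, SE 0.12, adjusted p = 2.8e-05, edgeR). SDF2L1, a cofactor of HSPA5 (chr22:21642261-21644298, plus strand), stood at 80.8 and 85.4 CPM at 4 h and at 9.53 and 12.2 CPM at 48 h. At 7.67-fold lower it had the largest fall of all genes that averaged 4 CPM or more and had separate groups (log2 fold change -2.94, SE 0.14, adjusted p = 2.8e-05). CRELD2, a secreted factor of the stressed compartment, fell from 51.3 and 57.6 CPM to 7.33 and 10.8 CPM (log2 fold change -2.59, adjusted p = 6.2e-05). HSP90B1 (GRP94), the compartment's HSP90, fell from 1007 and 1001 CPM to 323 and 299.8 CPM (log2 fold change -1.69, adjusted p = 3.6e-05). The groups of these 4 genes did not overlap, as for 6620 of the 21908 genes tested with 48 h below. The 48 h replicates of the 4 genes lay within 1.5-fold of each other. MANF, a secreted stress-responsive factor, and HERPUD1, a part of the degradation machinery, changed by -1.75 and -1.64 on the log2 scale. DERL3, a degradation channel component outside the list, was among the largest falls too, from 7.67 and 10.6 CPM to 1.77 and 1.8 CPM. DNAJB9 (log2 fold change -0.66) and EDEM1 (-0.24) were the list members that did not pass. Each 48 h library was also set against the 4 h mean. All 18 members lay below their 4 h mean in replicate 1 and all 18 in replicate 2, with median log2 ratios of -1.31 and -1.42. Of all 21908 genes tested, 10760 lay below it in replicate 1 and 10709 in replicate 2. Such counts below are read against these, and both libraries share the same 4 h mean.

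Some promoters of these genes hold the letters to which stress-response factors bind. The endoplasmic reticulum stress element, searched as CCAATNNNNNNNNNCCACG on both strands in the 250 bases before the RefSeq start (GRCh38.p14), was present in 5 of the 17 list members with a promoter sequence and in 0.074% of all 35116 promoters. The 5 were HSPA5, HSP90B1, CALR, CRELD2 and XBP1, all of which fell; they are shown because they hold the element, and CALR and XBP1 were named after their values were seen. Capitals mark the match, bases run 5′ to 3′ on the gene's strand, and the position is that of the 250 bases.
HSPA5 (chr9:125241344-125241593, minus strand): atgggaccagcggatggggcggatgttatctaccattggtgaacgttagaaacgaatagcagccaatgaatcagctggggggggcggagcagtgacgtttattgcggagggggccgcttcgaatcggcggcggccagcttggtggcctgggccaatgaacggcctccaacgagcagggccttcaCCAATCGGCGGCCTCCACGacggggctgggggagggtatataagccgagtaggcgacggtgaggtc
HSP90B1 (chr12:103930160-103930409, plus strand): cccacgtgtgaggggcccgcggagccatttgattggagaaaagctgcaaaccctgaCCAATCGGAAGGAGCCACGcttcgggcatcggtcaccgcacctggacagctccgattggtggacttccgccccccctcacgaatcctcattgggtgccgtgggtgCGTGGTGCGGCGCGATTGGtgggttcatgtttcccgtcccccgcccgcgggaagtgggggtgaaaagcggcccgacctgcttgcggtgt
CALR (chr19:12938359-12938608, plus strand): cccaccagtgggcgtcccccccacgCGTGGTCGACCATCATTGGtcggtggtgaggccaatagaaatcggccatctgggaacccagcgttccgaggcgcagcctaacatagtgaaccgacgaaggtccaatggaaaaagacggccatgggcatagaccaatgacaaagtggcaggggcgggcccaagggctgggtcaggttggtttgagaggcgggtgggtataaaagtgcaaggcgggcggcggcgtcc
CRELD2 (chr22:49918384-49918633, plus strand): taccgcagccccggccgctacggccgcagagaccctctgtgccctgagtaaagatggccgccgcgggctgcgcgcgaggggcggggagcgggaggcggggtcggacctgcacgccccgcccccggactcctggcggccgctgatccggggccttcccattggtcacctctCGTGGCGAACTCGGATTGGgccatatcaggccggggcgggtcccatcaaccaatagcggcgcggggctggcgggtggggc
XBP1 (chr22:28800570-28800819, minus strand): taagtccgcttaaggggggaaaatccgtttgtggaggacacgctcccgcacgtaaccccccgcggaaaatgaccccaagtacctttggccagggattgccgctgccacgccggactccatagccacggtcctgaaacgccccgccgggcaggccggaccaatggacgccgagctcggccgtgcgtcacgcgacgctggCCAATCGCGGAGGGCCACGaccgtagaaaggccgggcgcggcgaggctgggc
The match lies 66 to 48 bases before the start in HSPA5 and 52 to 34 bases before it in XBP1, reading along the gene. HSP90B1 has 2 matches, of which 1 is on the other strand, and the matches of CALR and CRELD2 are on the other strand. The log2 fold changes of the 5 genes were -2.40 for HSPA5, -1.69 for HSP90B1, -1.40 for CALR, -2.59 for CRELD2 and -0.62 for XBP1. Of the 12 members with a promoter sequence and no match, 10 fell as well, among them SDF2L1 with the largest fall. A match is a run of letters and not a measured binding site. Elements with other letters or further off were not searched, so no match does not show that the element is absent.

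Cytosolic chaperones fell as well. Of 20 heat shock genes, 14 fell, 0 rose and 6 did not pass, with a median log2 fold change of -0.78; 9 to 15 fell when 1 DMSO library was left out, fewest without either 4 h library. HSPA8 (HSC70), the constitutive HSP70 of the cytosol, stood at 5162 and 5222 CPM at 4 h and at 2229.5 and 989 CPM at 48 h. Both 48 h libraries lay below 4 h but far apart from each other, and the fall (log2 fold change -1.69, SE 0.40, adjusted p = 0.012, edgeR) no longer passed with 1 library left out (highest adjusted p = 0.065). CHORDC1, an HSP90 co-chaperone, stood at 76.8 and 73.6 CPM at 4 h and at 28.6 and 31 CPM at 48 h (log2 fold change -1.34, SE 0.079, adjusted p = 4.1e-05). HSPH1 (HSP105), an exchange factor of HSP70, fell from 359.6 and 348 CPM to 141 and 145 CPM (log2 fold change -1.31, adjusted p = 4.0e-05). The 48 h replicates of CHORDC1 and HSPH1 were close together and well below 4 h. The HSP70 co-chaperones DNAJA1 and DNAJB1 changed by -1.26 and -0.92 on the log2 scale. HSPA1A (log2 fold change -0.62, not passed) and HSPA1B (-0.91) are near-identical copies whose reads may be split between them. HSPA1A stood at 18.5 and 18 CPM at 4 h and at 5.35 and 18.4 CPM at 48 h, so replicate 2 lay at the 4 h level. Of the 20 members, 20 lay below their 4 h mean in 48 h replicate 1 and 17 in replicate 2. For the heat shock element, GAA, TTC and GAA in this order with NN between them were searched without mismatch on both strands in the same 250 bases. These exact letters were present in 2 of 19 list members with a promoter sequence and in 0.441% of all promoters. Imperfect forms of the element were not searched, so a gene without a match may still hold one. Both holders, HSPA8 and CHORDC1, fell, as did 11 of the 17 members with a promoter sequence and no match. The holders are shown because they hold the element, with every match in capitals.
HSPA8 (chr11:123062137-123062386, minus strand): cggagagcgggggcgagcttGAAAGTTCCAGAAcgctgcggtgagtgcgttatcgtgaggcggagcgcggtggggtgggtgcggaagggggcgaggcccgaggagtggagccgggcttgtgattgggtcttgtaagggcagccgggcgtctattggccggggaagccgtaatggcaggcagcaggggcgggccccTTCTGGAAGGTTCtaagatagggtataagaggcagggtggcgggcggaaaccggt
CHORDC1 (chr11:90223050-90223299, minus strand): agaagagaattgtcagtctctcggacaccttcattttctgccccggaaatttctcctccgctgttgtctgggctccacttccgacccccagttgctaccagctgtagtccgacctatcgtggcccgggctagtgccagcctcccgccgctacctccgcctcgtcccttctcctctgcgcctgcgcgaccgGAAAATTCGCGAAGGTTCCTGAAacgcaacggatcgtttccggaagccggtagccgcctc
HSPA8 has 2 separate matches, and the 3 matches of CHORDC1 overlap in 1 run.

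Genes of sterol synthesis and uptake fell together. Of 24 tested sterol genes, 21 fell, 1 rose and 2 did not pass, with a median log2 fold change of -0.99. HMGCS1, which makes HMG-CoA for the mevalonate pathway (chr5:43289395-43313512, minus strand), stood at 152 and 148 CPM at 4 h and at 41.8 and 29.6 CPM at 48 h. The level was 4.21-fold lower at 48 h (log2 fold change -2.07, SE 0.14, adjusted p = 5.3e-05, edgeR). INSIG1, the sterol-dependent anchor of SREBPs, fell from 145 and 143 CPM to 54 and 31 CPM (log2 fold change -1.76, adjusted p = 7.6e-04, edgeR). For both genes replicate 2 at 48 h was lower than replicate 1, and both were far below 4 h. DHCR7, which completes cholesterol, changed by -1.62, the sterol carrier STARD4 by -1.61 and the demethylation enzyme MSMO1 by -1.55 on the log2 scale. TM7SF2, a sterol reductase, was the member that rose (0.50), and LSS (-0.33) and PMVK (0.16) did not pass; these 3 were named after their values were seen. In each 48 h library alone, 22 of the 24 members lay below their 4 h mean. For the sterol regulatory element the exact letters TCACNCCAC were searched on both strands in the 250 bases before the start. They were present in 1 of 18 list members with a promoter sequence, SREBF2, and in 0.883% of all promoters. Other forms of the element and positions further off were not searched, so a gene without a match may still hold one. SREBF2 fell, as did 14 of the 17 members without a match.

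Of 11 tested genes 5 fell and 0 rose in fatty acid synthesis, and 6 did not pass, with a median log2 fold change of -0.47; without 48 h replicate 1, 8 fell. FASN, the fatty acid synthase, stood at 2883 and 2939.8 CPM at 4 h and at 1654 and 1411 CPM at 48 h (log2 fold change -0.93, SE 0.089, adjusted p = 2.3e-04). The desaturase SCD, the acyl-CoA ligase ACSL3, the citrate lyase ACLY and the carboxylase ACACA changed by -0.64, -0.62, -0.60 and -0.53. Among 8 targets of the sterol sensor LXR, 3 rose and 2 fell, but 1 rose and 1 fell without either 4 h library: the cholesterol exporter ABCG1 rose from 59.1 and 57.1 CPM to 104 and 77.9 CPM (log2 fold change 0.64, adjusted p = 0.0061) and NR1H3, which encodes LXR alpha, changed by 0.97. MYLIP, a ubiquitin ligase induced by LXR, changed in the other direction (-0.61).

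**Figure D3:**
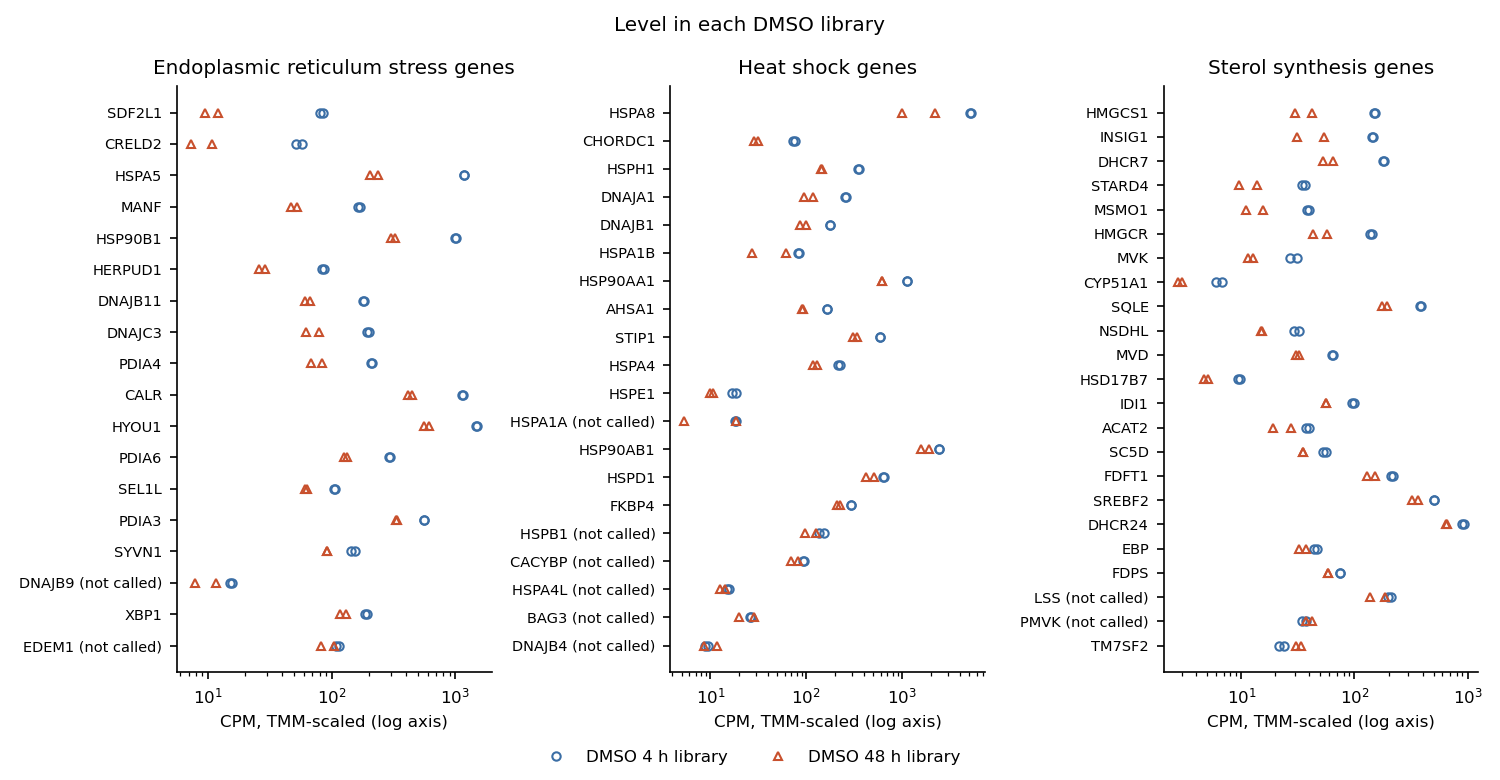
CPM of each gene in each DMSO library on a log axis, for 18 endoplasmic reticulum stress genes, 20 heat shock genes and 23 of the 24 sterol genes; circles are the 2 libraries at 4 h, triangles the 2 at 48 h, and genes that did not pass are marked. The 4 h circles nearly coincide and the 48 h triangles lie to their left for most genes, with the widest gap between triangles in HSPA1A, HSPA8 and HSPA1B.

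The machinery that builds ribosomes fell while the ribosomal proteins did not pass. Of 33 ribosome biogenesis genes, 29 fell, 0 rose and 4 did not pass, with a median log2 fold change of -0.58. PES1, a factor of large subunit maturation, stood at 215 and 224 CPM at 4 h and at 101 and 97.7 CPM at 48 h (log2 fold change -1.14, SE 0.072, adjusted p = 4.4e-05, edgeR). UTP20, a part of the small subunit processome, fell from 85.6 and 87.2 CPM to 37.5 and 41.5 CPM (log2 fold change -1.13, adjusted p = 8.4e-05). RRP12 and MRTO4, which act in subunit export and assembly, fell from 177 and 176 CPM to 76.4 and 90.4 CPM and from 183 and 193 CPM to 95.4 and 92.3 CPM, and the helicase DDX10 and the small nucleolar particle protein RRP9 changed by -0.92 and -0.92 on the log2 scale. All 33 members lay below the 4 h mean in each 48 h library. Of 43 cytosolic ribosomal protein genes, 0 passed by edgeR, with log2 fold changes from -0.19 to 0.17 and a median of -0.01 that is 0.10 with library totals and -0.14 with GC and length trends removed; in these 2 settings 1 rose and 7 fell. At an unadjusted p under 0.05 there were 1 higher and 2 lower, and DESeq2 and limma-voom called 0. MYC, a regulator of ribosome biogenesis, stood at 891 and 901 CPM at 4 h and at 1102 and 824 CPM at 48 h and did not pass (log2 fold change 0.10, adjusted p = 0.64). Of 14 polyamine and one-carbon genes 1 rose and 3 fell (median -0.08, and 0.03 with library totals), and 5 fell without 48 h replicate 1. Among them SRM, the spermidine synthase, changed by -0.69 and ODC1, the first enzyme of polyamine synthesis, by -0.61.

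Aminoacyl-tRNA synthetases, which charge tRNAs, fell in 12 of 20 cases and rose in 0, with a median log2 fold change of -0.27; without 4 h replicate 1 or 2, 5 and 7 fell. FARSB stood at 111 and 107 CPM at 4 h and at 67.2 and 62.9 CPM at 48 h (log2 fold change -0.74, SE 0.076, adjusted p = 3.0e-04), and IARS1, WARS1 and RARS1 changed by -0.65, -0.63 and -0.56. Splicing regulators fell in 13 of 24 cases and rose in 1, with a median of -0.35. The SR proteins, which mark exons for splicing, led the list: SRSF3 fell from 395 and 390.4 CPM to 201 and 149 CPM (log2 fold change -1.17, adjusted p = 0.001) and SRSF2 from 193 and 198 CPM to 89.5 and 91.2 CPM (-1.11, adjusted p = 7.4e-05). SRSF1, SRSF6, TRA2A and SRSF7 changed by -1.08, -1.05, -0.98 and -0.94. CIRBP, a cold-inducible RNA-binding protein, was the member that rose, from 81.1 and 83 CPM to 142 and 111 CPM (0.62), and its relative RBM3 changed the other way (-0.92); both were named after their values were seen.

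Energy metabolism moved less. Of 21 glycolysis genes 11 fell and 1 rose (median log2 fold change -0.25), and 5 fell without either 4 h library. LDHA, which turns pyruvate into lactate, stood at 431 and 436 CPM at 4 h and at 277 and 268 CPM at 48 h (log2 fold change -0.67, SE 0.068, adjusted p = 3.0e-04). PFKP, a phosphofructokinase, changed by -0.70 and the aldolase ALDOC by -0.68, while the neuronal-type enolase ENO2 rose from 33.6 and 36.2 CPM to 54.6 and 65.2 CPM (0.78, adjusted p = 9.8e-04). Nuclear genes of the respiratory chain fell in 12 of 35 cases and rose in 0 (median -0.20), and of 13 mitochondrially encoded genes 0 passed by edgeR, DESeq2 or limma-voom and 1 was higher at an unadjusted p under 0.05 (log2 fold changes from -0.29 to 0.37). Without either 4 h library, 3 of the respiratory chain genes fell, and 8 fell without either 48 h library. TXNIP, a glucose-responsive inhibitor of glucose uptake, fell from 172 and 171 CPM to 129 and 119 CPM (-0.47, adjusted p = 0.0039) and its relative ARRDC4 changed by -0.58, with 3 of 8 genes of that list falling and 1 rising. Without either 4 h library 1 of the 8 fell and 0 rose, and with GC and length trends removed 6 fell and 0 rose. Hypoxia-inducible genes rose in 7 of 19 cases and fell in 1, or 4 and 3 with GC and length trends removed, and without 4 h replicate 1 or 2 rose in 2 and 3 cases: the MYC antagonist MXI1 rose from 6.03 and 5.49 CPM to 11.6 and 12.8 CPM (1.09, adjusted p = 0.0012) and NDRG1 from 7.94 and 7.95 CPM to 16.7 and 15.2 CPM (1.00, adjusted p = 7.0e-04), while PFKFB3 changed by -0.48. VEGFA, a classical target of the same factor, did not pass (0.11) and was named after its value was seen.

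Of 24 ATF4 response genes 4 rose and 4 fell, near the shares over all genes (median 0.02, and -0.15 with GC and length trends removed). ASNS, the asparagine synthetase, fell from 126 and 123 CPM to 58.9 and 56.3 CPM (log2 fold change -1.12, SE 0.073, adjusted p = 4.7e-05) and PHGDH, the first enzyme of serine synthesis, changed by -0.95. SESN2, a leucine sensor that restrains mTORC1, rose from 53.4 and 54.1 CPM to 99.5 and 83 CPM (0.76, adjusted p = 0.0011), and CEBPB and the cystine transporter SLC7A11 changed by 0.67 and 0.62. Of 12 amino acid transporters 4 rose and 2 fell, or 3 and 3 with the trends removed, and 2 and 1 without either 4 h library. The arginine exchanger SLC7A6 fell from 61.4 and 62 CPM to 29.4 and 32.3 CPM and the neutral amino acid transporter SLC43A1 changed by 0.92. Of 30 autophagy and lysosome genes 6 rose and 2 fell (median 0.25), but 12 rose and 0 fell with library totals and 2 rose and 4 fell with the trends removed. The protease CTSL rose from 16.7 and 17.3 CPM to 30.6 and 38.8 CPM (1.03, adjusted p = 5.2e-04). CTSD stood at 45.1 and 44.5 CPM at 4 h and at 59 and 148 CPM at 48 h, so its rise (1.21, adjusted p = 0.041) rested mostly on 48 h replicate 2. Without 48 h replicate 2, 2 of the 30 genes rose and 2 fell; without 48 h replicate 1, 13 rose and 1 fell, and without either 4 h library 1 rose and 0 fell.

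**Figure D4:**
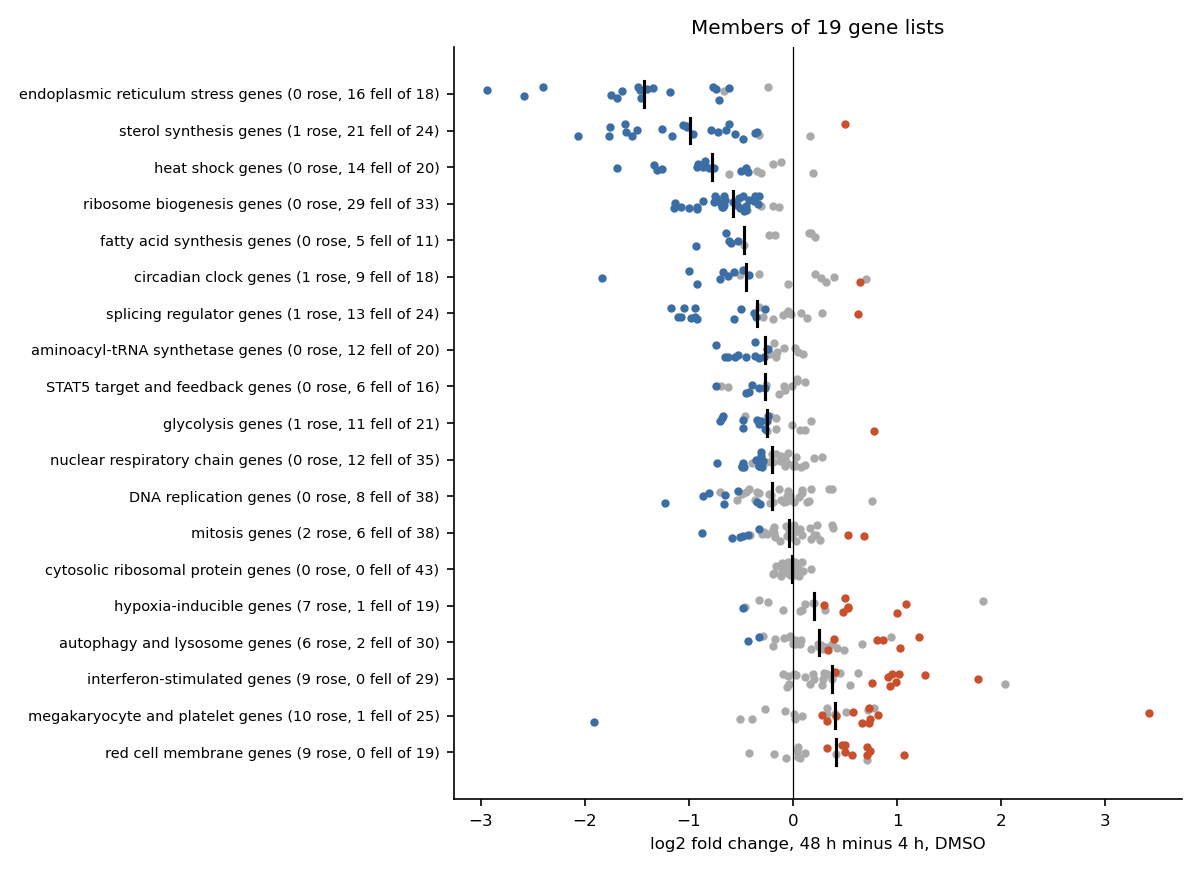
Log2 fold change from 4 h to 48 h of every tested member of 19 gene lists; each dot is a gene, coloured where it passed, the vertical tick is the list's median, and the counts stand beside the list's name. The endoplasmic reticulum list has a median of -1.43 and the sterol list -0.99, ribosomal proteins centre on -0.01, and red cell membrane genes on 0.41.

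Cell cycle genes gave different answers in the 48 h replicates. Of 38 DNA replication genes 8 fell and 0 rose (median log2 fold change -0.20), and of 38 mitosis genes 6 fell and 2 rose (median -0.04), which with library totals become 3 fell and 5 rose (median 0.07). CDC6, which loads the replication helicase, stood at 124 and 127 CPM at 4 h and at 66.1 and 41.5 CPM at 48 h (log2 fold change -1.23, SE 0.21, adjusted p = 0.0028). MCM5, a helicase subunit, changed by -0.65, the uracil glycosylase UNG by -0.81, and the cyclin kinase subunit CKS2 by -0.88. The median log2 ratio of the replication list to the 4 h mean was 0.04 in 48 h replicate 1 and -0.44 in replicate 2, and that of the mitosis list 0.18 and -0.32. Without 48 h replicate 1, 23 replication genes fell and 0 rose, and without replicate 2, 5 fell and 4 rose. Without 4 h replicate 1 or 2, 5 and 4 replication genes and 2 and 3 mitosis genes fell, and 0 rose. Of the mitosis genes, 13 fell and 0 rose without 48 h replicate 1, and 3 fell and 5 rose without replicate 2. Among 16 G1 cyclins, CDKs and E2F factors 2 rose and 4 fell, against 0 and 1 without 4 h replicate 1, 1 and 1 without 4 h replicate 2, and 2 and 2 without 48 h replicate 2. The phosphatase CDC25A and the factor E2F1 changed by -0.65 and -0.64.

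Of 23 cell cycle inhibitors and quiescence genes 7 rose and 3 fell (median 0.17), against 5 and 1 without 4 h replicate 1 and 4 and 0 without 4 h replicate 2. Members of the MYC antagonist family were among them: MXD3 rose from 9.63 and 10.1 CPM to 20.1 and 17.6 CPM (log2 fold change 0.93, adjusted p = 5.4e-04) and MXD4 changed by 0.94, beside MXI1 given above. CDKN2C (p18), an inhibitor of CDK4 and CDK6, rose from 72.6 and 71.4 CPM to 129 and 142 CPM (0.92, SE 0.088, adjusted p = 2.2e-04), with both 48 h libraries above both 4 h libraries. CDKN1A (p21) fell from 10.5 and 11.2 CPM to 4.41 and 6.74 CPM (-0.96, adjusted p = 0.0071), while of 18 p53-linked genes 6 rose and 3 fell (5 and 5 with GC and length trends removed, 4 and 1 without 4 h replicate 2), among them the repair factor DDB2 (1.02) and the death gene BBC3 (0.96). Of 14 BCL2 family genes 1 rose and 5 fell, with 3 falling without 4 h replicate 1 or 48 h replicate 1 and 2 without 4 h replicate 2, and the death gene BCL2L11 (BIM) changed by -0.59. Of 18 FOXO targets 6 rose and 1 fell, and without 4 h replicate 1 or 2, 0 and 2 rose.

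Lineage genes of the red cell surface rose. Of 19 tested red cell membrane genes, 9 rose, 0 fell and 10 did not pass, with a median log2 fold change of 0.41; 5 to 9 rose when 1 DMSO library was left out, fewest without 4 h replicate 2. EPB42, which ties the membrane skeleton to band 3, stood at 83.4 and 85.1 CPM at 4 h and at 149.7 and 132 CPM at 48 h (log2 fold change 0.74, SE 0.091, adjusted p = 6.4e-04, edgeR). The blood group proteins XK, KEL and RHD changed by 0.71, 0.71 and 0.57. The groups of these 4 genes did not overlap, as for 7172 of the 21908 genes tested with 48 h above, and KEL was highest in 48 h replicate 1. Of 22 haem and iron genes 5 rose and 0 fell, and 3 rose without either 4 h library: PPOX (0.91), ALAD (0.77) and FECH (0.59) of haem synthesis, the mitochondrial iron importer SLC25A37 (0.31), and the iron exporter SLC40A1, which rose from 112 and 111 CPM to 206 and 199.8 CPM (0.87, adjusted p = 1.8e-04). Globins did not follow. Of 9 tested, 1 fell (3 without 48 h replicate 1), the embryonic HBE1, from 124 and 122 CPM to 87.8 and 84.8 CPM (-0.51, adjusted p = 0.0016), and the median log2 ratio to 4 h was 0.18 in 48 h replicate 1 and -0.63 in replicate 2.

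Platelet-lineage genes rose in 10 of 25 cases and fell in 1 (median 0.40). TUBB1, the platelet tubulin, stood at 10.2 and 8.8 CPM at 4 h and at 15.8 and 17.7 CPM at 48 h (log2 fold change 0.82, SE 0.13, adjusted p = 0.0021). The thromboxane synthase TBXAS1 rose from 26.1 and 25.4 CPM to 39.8 and 46.3 CPM (0.74, adjusted p = 9.3e-04), and the scavenger receptor CD36 and the adhesion receptor SELP changed by 0.73 and 0.73. THBS1, thrombospondin, was the member that fell, from 27.5 and 31.6 CPM to 7.85 and 7.87 CPM (-1.91, adjusted p = 4.4e-05). The rises depended on the library: 6 rose and 3 fell without 48 h replicate 2, and 15 rose and 1 fell without replicate 1. Without 4 h replicate 1 or 2, 5 and 4 rose. Of 17 lineage transcription factors 5 rose and 1 fell, or 3 and 3 with GC and length trends removed. Without 4 h replicate 1 none of them passed and without 4 h replicate 2, 1 rose and 0 fell. The full comparison had LMO2 rising from 91.9 and 97.9 CPM to 173 and 135 CPM (0.70, adjusted p = 0.007), FLI1 changing by 0.39 and RUNX3 by -0.71. GATA1 (-0.07) and KLF1 (0.01), the erythroid master factors, did not pass; they were named after their values were seen. Of 14 tested monocyte and granulocyte genes 3 rose and 0 fell (6 rose without 48 h replicate 1), among them CD33 (0.67) and ITGAM (0.95), and of 13 stem and progenitor genes 1 rose, CD34 (0.72).

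Feedback genes of JAK2 signalling fell in part. Of 16 STAT5 target genes 6 fell and 0 rose (median log2 fold change -0.27). SOCS3, a feedback inhibitor of JAK kinases, stood at 68.5 and 69.4 CPM at 4 h and at 34.6 and 48.1 CPM at 48 h (log2 fold change -0.74, SE 0.16, adjusted p = 0.0092), and no longer passed with 1 library left out (highest adjusted p = 0.062). The kinases PIM2 and PIM3 and the survival factor MCL1 changed by -0.45, -0.42 and -0.39, while PIM1, a further target, did not pass (0.11, adjusted p = 0.62). JAK2 itself rose from 154 and 147 CPM to 254 and 232 CPM (0.70, SE 0.093, adjusted p = 9.3e-04), with separate groups. Without 4 h replicate 1 or 2, 3 and 0 of the 16 STAT5 target genes fell. Of 29 tested ERK feedback and immediate-early genes 9 fell and 0 rose (median -0.22), and 5 fell without 4 h replicate 2. PHLDA1, an ERK-induced gene, stood at 11.9 and 13.4 CPM at 4 h and at 2.2 and 4.34 CPM at 48 h (-1.95, adjusted p = 0.0011). The ETS factors ETV4 and ETV5 changed by -1.29 and -0.57, and the phosphatase DUSP8 by -1.64. DUSP6, the phosphatase that BCI inhibits, stood at 28 and 26.8 CPM at 4 h and at 31 and 27.3 CPM at 48 h and did not pass (0.09, SE 0.098, adjusted p = 0.55), nor did DUSP1 (0.08, adjusted p = 0.78).

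Inflammatory and antigen genes moved in both directions. Of 18 tested NF-kappaB targets 6 fell and 2 rose, or 4 and 4 with library totals, and 3 fell and 1 rose without either 4 h library. CXCL8, the neutrophil chemokine, fell from 5.43 and 4.94 CPM to 0.231 and 0.761 CPM (log2 fold change -3.39, adjusted p = 5.7e-04), and RELB changed by -1.11. IL1B, an inflammatory cytokine, rose from 45.4 and 43.9 CPM to 95.4 and 88.4 CPM (1.04, SE 0.079, adjusted p = 7.4e-05). Of 29 tested interferon-stimulated genes 9 rose and 0 fell (median 0.37), with 5 rising without 4 h replicate 2 and 16 without 48 h replicate 2: XAF1 rose from 2.08 and 1.99 CPM to 8.52 and 5.46 CPM (1.78, adjusted p = 0.0026), and the ubiquitin-like ISG15 and the antiviral MX1 changed by 1.02 and 0.93. Of 20 tested antigen presentation genes 3 rose and 4 fell, and 1 fell without 4 h replicate 1 or 2 or 48 h replicate 2 and 7 fell without 48 h replicate 1. The class I genes HLA-B and HLA-C changed by -1.10 and -0.84, with HLA-B at 435 and 433 CPM at 4 h and 274 and 131 CPM at 48 h, while the class II activator CIITA rose by 1.11 on the log2 scale. Reads of the class I genes may be shared between them. Circadian clock genes fell in 9 of 18 cases and rose in 1 (median -0.45). The output factor TEF fell from 13 and 12.8 CPM to 4.04 and 3.2 CPM (-1.84, adjusted p = 1.5e-04), the repressor PER2 fell from 52.8 and 52.1 CPM to 29.3 and 23.1 CPM, PER1 changed by -0.92, and the output factor DBP changed the other way (0.64). The zinc exporter SLC30A1 fell from 25.9 and 26.6 CPM to 9.43 and 11.4 CPM (-1.33, adjusted p = 2.2e-04), with 3 of 8 metallothionein and zinc genes falling and 1 rising.

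The largest rises lay in genes of low to moderate level and varied function. EXOC3L4, related to an exocyst subunit (chr14:103100144-103110559, plus strand), stood at 3.7 and 3.45 CPM at 4 h and at 19.6 and 21.6 CPM at 48 h. Both times had close replicates and the level was 5.77-fold higher (log2 fold change 2.53, SE 0.17, adjusted p = 4.7e-05, edgeR). TMEM129, a ubiquitin ligase of the endoplasmic reticulum (chr4:1715952-1721358, minus strand), was the most abundant of the 12, at 16.8 and 19.6 CPM at 4 h and 75 and 95.1 CPM at 48 h (2.22, adjusted p = 6.5e-05). The kinase ALPK3 rose from 2.56 and 2.99 CPM to 12.2 and 15.2 CPM (2.31, adjusted p = 4.7e-05), the formyl peptide receptor FPR3 from 3.26 and 4.35 CPM to 16.1 and 20 CPM (2.25, adjusted p = 7.9e-05) and the decoy chemokine receptor ACKR2 from 4.8 and 5.45 CPM to 21.5 and 19.2 CPM (1.99, adjusted p = 8.8e-05). PSD2, PDZD2, ITLN2, PIGV (a mannosyltransferase of GPI anchors), GALM (a galactose mutarotase) and MXRA8 completed the 12 together with SLCO2B1, with log2 fold changes from 2.02 to 2.49. SLCO2B1 stood at 5.22 and 5.58 CPM at 4 h and at 8.6 and 41 CPM at 48 h, and its change of 2.20 was 0.67 without 48 h replicate 2. It passed neither there nor without either 4 h library.

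Among the 12 largest falls were the endoplasmic reticulum genes SDF2L1, CRELD2, HSPA5 and DERL3, and the pseudogene HSPA5P1, whose change of -2.33 may come from reads of HSPA5. TRIM67, a ubiquitin ligase (chr1:231162112-231221556, plus strand), stood at 15.4 and 17.8 CPM at 4 h and at 2.46 and 2.88 CPM at 48 h (-2.64, SE 0.21, adjusted p = 8.4e-05). The scaffold AKAP12 fell from 14.6 and 14.5 CPM to 2.33 and 2.9 CPM (-2.48, adjusted p = 4.4e-05). The long non-coding RNA AATBC changed by -2.06, the pseudogene AC105250.1 by -2.40, and HMGCS1, PHLDA1 and THBS1 are given above.

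The BCI arm gives other libraries at both times, in which time and the BCI response change together. Both arms came from the same fit, and their 48 h replicate differences correlated at r = 0.83. Calls shared by the arms are therefore not an independent repeat. There 3029 genes (13.8%) were higher and 2563 (11.7%) lower at 48 h. Of the genes called higher in DMSO 1653 were also called higher in BCI (56.0% of the DMSO list and 54.6% of the BCI list), 34 were called lower and 1263 were not called. Of those called lower in DMSO 1488 were also called lower in BCI (51.5 and 58.1% of the lists), 72 were called higher and 1327 were not called. The endoplasmic reticulum list fell in 17 of 18 cases in BCI (median -1.47) and the sterol list in 17 of 24 (median -0.56). HSPA5 changed by -2.41 in BCI and -2.40 in DMSO, and HMGCS1 by -1.55 and -2.07. Ribosome biogenesis genes fell in 7 of 33 cases and rose in 5 in BCI (median -0.02), and heat shock genes fell in all 20 cases (median -2.43), from a 4 h level that was above DMSO: HSPH1 stood at 2108 and 1995 CPM in BCI at 4 h, against 359.6 and 348 CPM in DMSO. The change with time itself differed between the arms for 757 genes by the same test.

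**Figure D5:**
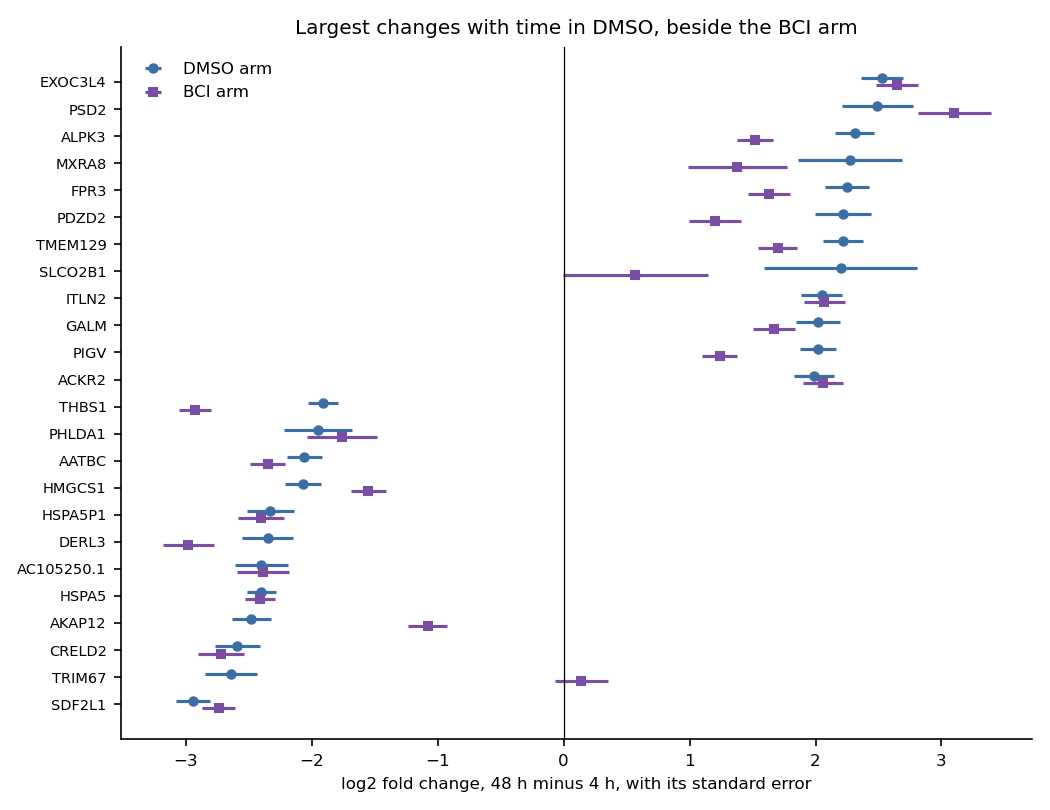
Log2 fold change from 4 h to 48 h, with its standard error, of the 12 largest rises and 12 largest falls in DMSO (circles), beside the value of the same gene in BCI (squares). The genes were chosen for their DMSO value, and TRIM67, at -2.64 in DMSO and 0.14 in BCI, is the fall with the widest gap between the arms.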

How the data were processed

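RNA-seq counts of HEL cells at 4 h and 48 h in DMSO were compared, with the BCI libraries of the same table in the fit. Per the submitters' processing notes bcl2fastq, STAR 2.5.1a, edgeR and GRCh38 were used; not given in the sources used here were the counter, its strand setting and the annotation release. The authors deposited raw counts per gene. Of 55209 lines, 116 repeats were dropped, which left 55093 genes, 55086 of them in GENCODE 29. Low counts were even in 68.1 to 70.6% of cases, so mates may have been counted separately, and counts were also halved as an alternative. Depth was 63916850 to 84452743 counts, where 3 counts make 0.0355 to 0.0469 CPM, and this covers counting error only.

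Genes passing filterByExpr (21908) were tested with edgeR 4.0.16 (quasi-likelihood, TMM, 8 libraries in 4 groups, 4 residual degrees of freedom, common coefficient of variation 13.3%), with Benjamini-Hochberg adjustment at 0.05. The fit takes the 8 libraries as independent and gives each gene 1 spread for both times. Yet the replicate differences of DMSO and BCI at 48 h correlated at r = 0.83. In DMSO their SD was 0.30 at 48 h against 0.12 at 4 h, so the p-values are approximate. A standard error is the size of the log2 fold change divided by the root of F. Alternatives used DESeq2 1.42.0, limma 3.58.1 (voom), other filters and scalings, and each library left out. In simulated data for this comparison, on 21908 genes, 35.8% of 67 genes changed 1.5-fold, 82.1% of 67 changed 2-fold and 93.9% of 66 changed 4-fold were recovered, and 11 unchanged genes were called. The simulation changed 200 genes and drew the libraries independently with 1 spread per gene. It held neither the wider spread at 48 h nor the replicate differences shared by the arms, so its figures may not hold for the data.

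Named genes were the 12 largest rises and falls with a mean of at least 4 CPM and groups apart, up to 6 passing members of each of 46 lists by size, and DUSP6, DUSP1, JAK2, MYC and PIM1, with exceptions named; some members are not reported here. The comparison and the lists were chosen with earlier results of these data known. Gene positions come from GENCODE 29 and promoters from RefSeq (GRCh38.p14).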

Additional observations from a re-analysis of the deposited data

Results flagged for a closer look

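Among the largest rises and falls in DMSO, 3 genes changed differently from 4 h to 48 h in the DMSO and BCI arms. The test was edgeR's test of the difference itself. Over all genes tested 757 differed in this way, and named genes outside the largest changes are not listed here. TRIM67 stood at 15.4 and 17.8 CPM at 4 h and 2.46 and 2.88 CPM at 48 h in DMSO, and at 2.42 and 2.18 and then 3.03 and 2.01 CPM in BCI, a difference in log2 change (BCI minus DMSO) of 2.77 (adjusted p = 0.0018, edgeR). For AKAP12 the BCI libraries stood at 5.35 and 6.08 CPM at 4 h and 2.79 and 2.61 CPM at 48 h, and the difference was 1.4 (adjusted p = 0.01, edgeR). For THBS1 they stood at 59.4 and 49.9 CPM and then 6.88 and 7.5 CPM, and the difference was -1.02 (adjusted p = 0.014, edgeR). For all 3 genes the 48 h levels of the arms lay close together and the 4 h levels apart.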

How the results depend on the processing

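Requiring a change beyond 1.5-fold left 621 calls in DMSO (435 higher, 186 lower) and 903 in BCI (535 higher, 368 lower). With 1 library left out, calls ranged from 2498 to 6017 in DMSO (higher 1216 to 2947, lower 1228 to 3070) and from 2530 to 4142 in BCI (higher 1258 to 2344, lower 1272 to 1883); the lone library was assumed to vary like the other groups. The other settings kept the count of DMSO calls between 4718 (only the 4 libraries compared) and 6781 (no low-count filter), among them 5895 with DESeq2 size factors, 6229 with DESeq2, 5429 with limma-voom, 5919 with halved counts and 5863 with library totals, the last chosen after seeing the data. Replicate differences at 4 h and 48 h in DMSO correlated at 0.10 across genes, while those of DMSO and BCI at 48 h correlated at 0.83. The labels do not say what the replicate numbers share. The low correlation cannot show whether they pair the times, because a difference that arose after 4 h would not be seen at 4 h. With a replicate block 6668 genes were called in DMSO and 6353 in BCI, and with only the 4 libraries of each arm 5350 and 6541. Over 17 alternatives there were 492 values for 29 named genes. Of these values, 479 kept direction and side of the threshold, 7 changed sign and 6 kept direction but no longer passed. The 29 genes were the largest rises and falls with groups apart, and DUSP6, DUSP1, JAK2, MYC and PIM1. Most were thus chosen for large changes, so their stability follows in part from the choice. The sign changes were all in genes that did not pass in either setting: DUSP1 (-0.15), MYC (-0.07) and PIM1 (-0.09) with GC and length trends removed, and, with 1 library left out, DUSP1 (lowest -0.12, highest 0.24), MYC (-0.13 to 0.30), PIM1 (-0.13 to 0.31) and DUSP6 (-0.01 to 0.18). Among the 29 genes, those that no longer passed were JAK2 and SLCO2B1 at a change beyond 1.5-fold. SLCO2B1 also no longer passed under limma-voom (1.78) and without 4 h replicate 1, 4 h replicate 2 (2.14 and 2.24) or 48 h replicate 2 (0.67). Other named list members were not in this tally. HSPA8 and SOCS3, given above, are among them and no longer passed with 1 library left out. With 2 libraries a group, changes of about 1.5-fold were mostly missed in the simulation.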

Other observations

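The lists below had counts near or under the shares over all genes (13.5% higher, 13.2% lower) and are given as values. Of 24 replication-dependent histone genes tested, 2 rose and 1 fell (median log2 fold change 0.57), but 10 rose without 48 h replicate 1 and 0 without 4 h replicate 2, and the median log2 ratio to the 4 h mean was -0.13 in 48 h replicate 1 and 0.57 in replicate 2. Small nucleolar RNA host genes rose in 2 of 15 cases and fell in 0, and rose in 6 without 48 h replicate 2 and in 0 without any other DMSO library. NRF2 targets rose in 3 of 18 cases and fell in 1 (median 0.10, and -0.09 with GC and length trends removed), in 1 case without either 4 h library and in 5 without 48 h replicate 1; 3 fell without either 48 h library. TGF-beta and BMP response genes rose in 2 of 16 cases and fell in 3 (1 rose without either 4 h library), with median log2 ratios to the 4 h mean of -0.33 and 0.19 in the 48 h replicates.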
